A study of Mus musculus with 4 samples.

Results

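The wild-type zymogenic array was compared with the wild-type neck array across all genes of the mouse stomach corpus. RNA came from cells cut by laser capture out of stomach sections of adult mice with a C57BL/6 background, and was read on Affymetrix Mouse Gene ST arrays. The series holds 4 arrays, of which the 2 wild-type ones make this comparison: mucous neck cells and zymogenic cells, both with an intact gene for MIST1 and with no treatment named in the labels. The other 2 arrays hold the same cell types from MIST1-null mice; MIST1 is a transcription factor that secretory cells rely on. They share no array with the wild-type pair and are given beside it as a further pair, in which genotype and pair cannot be told apart.

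Members were the genes measured by a probe set with exactly 1 gene symbol whose higher wild-type value reached the median of all such probe sets. That median was an array intensity of 43.7, or 5.45 on the log2 scale, and it is called the detection level below. The level ranks signals by size, and no background was measured. Of 19938 genes, 11778 were detectable in this sense and 8160 were not. Both wild-type values reached the level for 8247 genes, while 1620 reached it in neck cells only and 1911 in zymogenic cells only. A gene that passed through 1 array alone had to differ, so counts are also given for the genes with both values at the level. Just inside it lay Tha1, with 40.8 in neck and 43.7 in zymogenic cells, and just outside it lay Akna, with 43.7 and 36.1.

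Mucous neck cells lie in the middle of the gastric gland and make a mucus built on the mucin MUC6 and the trefoil peptide TFF2. As they move towards the gland base they turn into zymogenic (chief) cells, which store pepsinogen and other digestive proteins in large granules. This change needs a wide rough endoplasmic reticulum (ER), and MIST1 and XBP1 are known to drive it.

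Each group was 1 array of RNA pooled over several dissections and several mice, so there is no replicate, no error and no test for any difference. Differences are log2 values of zymogenic minus neck intensity, with values under 1 set to 1, and genes are counted at 2-fold or more, a log2 difference of 1. Array medians over all probe sets were 39.3 for neck and 40.9 for zymogenic cells, and the median difference over detectable genes was 0.02. Zymogenic cells were taken below the zone stained by the lectin GS-II, which binds neck mucus, and cells with the outline of parietal cells were avoided, per the series design text. Mucus genes therefore stand close to the choice of cells. In captured tissue, fewer cells of a type and less RNA per cell cannot be told apart.

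Of the detectable genes, 739 had a zymogenic value at least 2-fold higher, which is 6.27%, and 799 had one at least 2-fold lower, which is 6.78%. Among genes with both values at the level the shares were smaller, with 266 higher (3.23%) and 343 lower (4.16%). Large differences were more often on the neck side: 29 genes were lower by a log2 difference of 3 or more and 14 higher by as much. The quartiles of the difference over detectable genes were -0.41 and 0.43. Measurements of 1 gene by separate probe sets bear on how firm such sizes are. Of 24 genes that were 2-fold higher by their chosen probe set and had others that were detectable, the median of the others was also 2-fold higher for 9 and above 0 for 18. Of 34 such genes that were lower, the others were also 2-fold lower for 15 and below 0 for 30.

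**Figure D1:**
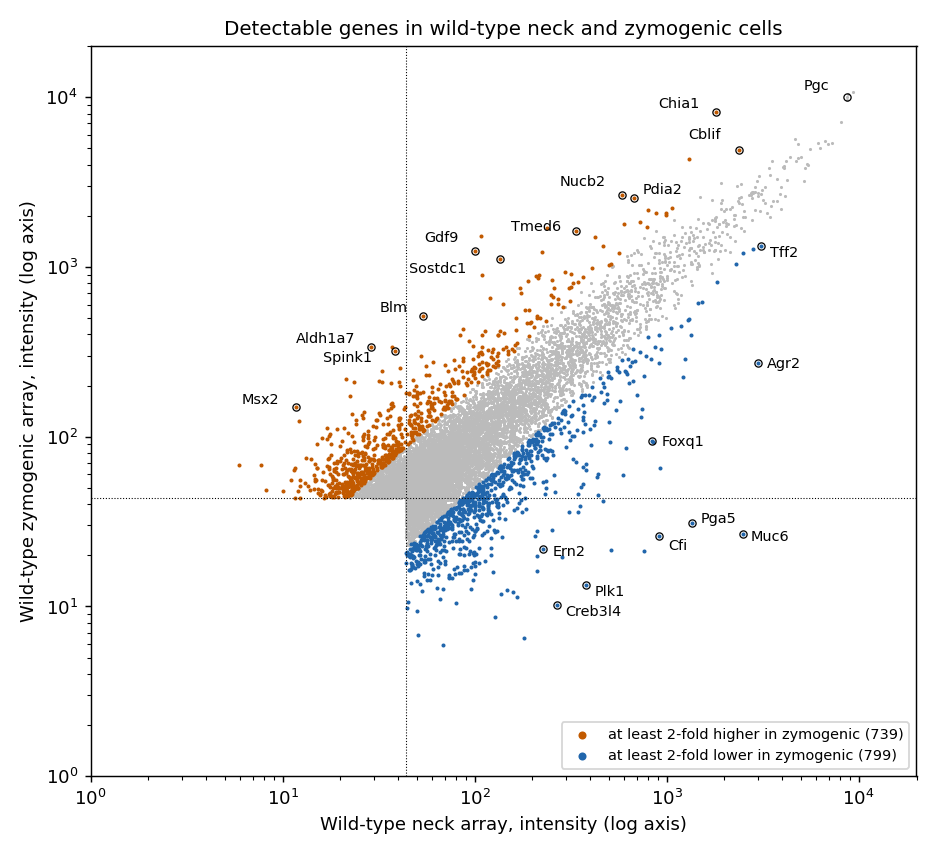
Intensity of each detectable gene on the wild-type neck array (x, log axis) and the wild-type zymogenic array (y, log axis), 1 point per gene, with dotted lines at the detection level of 43.7. Orange and blue points are the 739 genes at least 2-fold higher and the 799 at least 2-fold lower in zymogenic cells; Muc6, Pga5 and Cfi lie far below the main body, and Gdf9, Sostdc1 and Chia1 above it.

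The labelled cell types were checked against their markers first. Chia1, an acidic chitinase of zymogenic cells, read 1806 in neck and 8209 in zymogenic cells. Cblif, gastric intrinsic factor, read 2373 and 4882. Pgc, a pepsinogen gene, read 8698 and 9982 on arrays whose highest values were 13837 and 14251. Zymogenic products were thus bright on the neck array as well, and 2 of the 4 detectable ones were 2-fold higher in zymogenic cells. Lipf and Cym, 2 further digestive genes, were under the detection level, and the pepsinogen gene Pga5 went against the label, with 1350 in neck and 31.0 in zymogenic cells.

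Neck markers separated the arrays more clearly. Muc6 read 2511 in neck and 26.7 in zymogenic cells, and Agr2, a disulfide isomerase needed for mucin folding, read 2979 and 273. Tff2 read 3088 and 1320, so the zymogenic array also had a bright signal for this neck peptide. In the MIST1-null pair it read 3827 and 277. Whether the wild-type signal came from zymogenic cells or from neck cells among them was not tested. Of 6 neck markers 5 were lower by 2-fold or more, the list median being -2.94, and Aqp5, a water channel, read 65.7 and 95.5. Bhlha15, the gene of MIST1, read 59.7 in neck and 149.8 in zymogenic cells, a difference of 1.33, against 20.2 and 22.0 in the MIST1-null pair. Whether its probes lie in the deleted stretch is not known here.

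Markers of neighbouring cells also differed between the arrays, and their part in the results was not tested. Of 18 detectable parietal cell genes, 11 were 2-fold lower in zymogenic cells and 0 higher, and their summed intensity went from 13591 to 6673. Endocrine genes summed to 6609 and 10063, with 9 of 19 higher, and ghrelin, Ghrl, was bright on both arrays at 4371 and 4428. Fibroblast and smooth muscle genes summed to 1621 and 3527, with 11 of 22 higher, and immune genes to 1232 and 1834, with 7 of 22 higher and 1 lower. Tuft cell genes summed to 522 and 531, but this sum hides a pair of large opposite differences, with Rgs13 at 158 and 12.2 and Il25 at 82.6 and 262. Endothelial genes summed to 803 and 812, with 0 of 9 at 2-fold. These sums cover every measured member of a list, while the counts cover the detectable ones. With both values at the level, 8 parietal genes were lower, and 3 endocrine, 8 fibroblast and smooth muscle and 2 immune genes were higher. The tuft cell markers Dclk1, Trpm5 and Gnat3 and the smooth muscle markers Tagln, Des and Myl9 were under the detection level on both arrays. Surface mucous genes also gave signal, with Psca at 4653 and 5629, Gkn1 at 879.7 and 1208 and Gkn2 at 883 and 1619. Tff1 read 294 and 455 and Muc5ac 51.4 and 65.5. Of the same list, Sult1c2 (-1.26) and Ctse (-1.30) were lower by 2-fold or more. Anxa10 (-0.62), Muc1 (-0.42) and Mucl3 (-0.04) were lower by less.

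Enzymes that build mucin sugars were in part lower in zymogenic cells. Of 34 detectable genes of this group, 10 were lower by 2-fold or more and 0 higher, and the median was -0.37. Over the 23 with both values at the level 4 were lower and 0 higher, with a median of -0.33. Gcnt1, which starts the core branch of mucin sugars, read 212 in neck and 19.8 in zymogenic cells. Gcnt3, a second branching enzyme, read 207 and 26.0, and the MIST1-null pair gave -4.04 for it beside -2.99 here. A4gnt, which caps gland mucin with the sugar that marks neck mucus, read 378 and 63.6. These 3 enzymes of branching and capping were all far lower, though the zymogenic values of Gcnt1 and Gcnt3 lay under the detection level. Gcnt4, of the same family as these 2, read 64.3 and 86.8, with both values at the level.

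Enzymes that place the first sugar on mucins were lower for some family members only. Galnt12 read 112 and 26.9, Galnt6 57.5 and 15.6, Galnt7 553 and 246, and Galnt4 193 and 88.7, all 4 lower by 2-fold or more. Galnt2, a widely used member, read 42.0 and 50.0, and Galnt5 read 45.1 and 54.5. C1galt1, which extends that first sugar, differed by -0.99, and its chaperone gene C1galt1c1 by 0.02. St3gal6, a sialyltransferase, had the opposite sign at 0.98, from 405 in neck to 799 in zymogenic cells. Galntl6 read 180.4 and 6.50, and with 32 added to each value its difference was -2.46 in place of -4.79.

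A few transcription factors were among the genes with the largest negative differences. Creb3l4, an ER-bound transcription factor, read 267 in neck and 10.2 in zymogenic cells. Foxq1, a regulator of mucous cell products in the stomach, read 840.0 and 94.8. Klf5, a factor of dividing epithelium, read 434 and 58.0. The MIST1-null pair gave -4.69, -2.63 and -2.86 for these 3 genes, close to -4.72, -3.15 and -2.90 in wild type.

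Over the whole list of 33 detectable gastric and secretory transcription factors, 7 were lower and 3 higher, with a median of -0.19. With both values at the level 6 were lower and 1 higher, Bhlha15. Sox9, a factor of progenitor and neck cells, read 803 and 388, and Gata6 read 457 and 184. Higher in zymogenic cells were Bhlha15, the homeobox gene Msx2 and Prox1. Msx2 read 11.7 and 149 and Prox1 19.5 and 60.3, and both of their neck values were under the detection level. Xbp1, a main regulator of ER growth, read 217 and 301, a difference of 0.47. Esrrg, at 423 and 123, belongs to the parietal list as well, and most of that list was lower too.

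ER genes differed in both directions. Mucous cells use a stress sensor of their own, IRE1 beta, encoded by Ern2, and it read 228 in neck and 21.9 in zymogenic cells. The ubiquitous form, Ern1, was under the detection level. Among disulfide isomerases, Agr2, Tmx1 and Tmx2 were lower in zymogenic cells, while Pdia2, a form known from pancreas, read 672 and 2548. Ero1b, the oxidase that recharges these enzymes in professional secretory cells, read 141 and 608, whereas Ero1a, its general form, read 46.2 and 56.7. In all 4 of 20 detectable isomerase genes were 2-fold higher and 3 lower.

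Entry into the ER leaned one way. Of 29 detectable genes for translocation and N-glycosylation, 5 were higher by 2-fold or more and 0 lower, with 25 above 0 and a median of 0.70, beside 51.6% above 0 among all detectable genes. All 29 had both values at the detection level. Spcs2 and Spcs3, subunits of the signal peptidase, read 108 and 316 and 792 and 1712. Ssr4, of the complex beside the translocon, read 255 and 661. The translocon subunit Sec61b read 408 and 988, and Srp9, of the signal recognition particle, read 994 and 2074. Sec61b has 3 probe sets and Srp9 has 2, and the values given are from the chosen one only. Sec11a, a further signal peptidase subunit, differed by -0.80, and Ostc, of the glycosylation complex, by 0.23. Serp1, a small protein bound to the translocon, read 801 and 2149.

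ER chaperones and stress genes were a mixed group. Of 26 detectable members, 3 were 2-fold higher and 2 lower, and the median was 0.31. Derl3 and Os9, which take part in the removal of misfolded proteins, read 57.5 and 163 and 117 and 267, and the co-chaperone gene Dnajc3 read 1066 and 2223. Hspa5, the main ER chaperone, read 1204 and 1710, while the stress sensors Atf6 and Eif2ak3 differed by -0.68 and -0.55. Dnajc10, an ER reductase, read 488 and 165. Further ER genes named by the size of their difference were Fkbp11, an ER prolyl isomerase, with 55.7 and 259.6, and Tent5c, which lengthens the tails of messages for secreted proteins, with 189.8 and 822.

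One DNA element is known to tie genes of this group together. The ER stress element has the letters CCAAT and CCACG with 9 bases of any kind between them, and it is bound by ATF6 with NF-Y and by XBP1. It was searched on both strands in RefSeq promoters of build GRCm38.p6, from 250 bases before to 50 after each gene's start, 300 bases in all. Any CCAAT box inside it overlaps that shorter motif. Of 32851 promoters, 39 held it, which is 0.119%. Promoters were found for 20 of the 26 ER chaperone genes, and 7 of these held it (35.0%), and for 21 of the 29 translocation genes, of which 0 held it. As the element is known from genes of this group, the 35.0% is not an independent result. Of 9375 detectable genes with a promoter in the table, 16 held it (0.171%). Among these, 558 were 2-fold higher in zymogenic cells and 5 held it (0.896%), and of 638 that were 2-fold lower 0 did. At so low an overall share, neither 5 of 558 nor 0 of 638 is read as a difference. Of the 5, Dnajc3, Derl3, Ero1b and Creld2 are also on the ER chaperone or isomerase lists.

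The 5 elements are shown because their genes all had zymogenic values at least 2-fold higher. Capitals mark the fixed letters on the strand of the gene, and in Derl3, Ero1b and Creld2 the element runs on the opposite strand.
Dnajc3: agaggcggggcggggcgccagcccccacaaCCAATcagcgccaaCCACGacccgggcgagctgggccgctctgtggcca
Derl3: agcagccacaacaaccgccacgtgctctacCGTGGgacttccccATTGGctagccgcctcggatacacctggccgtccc
Ero1b: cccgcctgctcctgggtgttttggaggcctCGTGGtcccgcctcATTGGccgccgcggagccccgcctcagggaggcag
Creld2: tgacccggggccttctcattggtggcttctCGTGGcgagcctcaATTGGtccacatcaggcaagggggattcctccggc
Acnat2: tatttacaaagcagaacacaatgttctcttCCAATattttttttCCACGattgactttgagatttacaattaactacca
The stretches lie at chr14:118937797-118937875 on the plus strand for Dnajc3, chr10:75893212-75893290 on the plus strand for Derl3, chr13:12565652-12565730 on the plus strand for Ero1b, chr15:88819490-88819568 on the plus strand for Creld2 and chr4:49408187-49408265 on the minus strand for Acnat2. A match is a description of the letters and does not show that a factor binds there.

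In all 16 detectable genes held the element, of which 7 are on the ER chaperone list and 3 on the isomerase list. The counts for these genes thus repeat in part what those lists gave. Differences of the 16 ran from -0.42 for Acacb, a gene of fatty acid metabolism, to 2.11 for Ero1b. Of the 16, 15 were above 0 and 5 at 2-fold or more, with a median of 0.47. Acnat2, Alg12 and Tdrd9 were detectable through the zymogenic array alone and so had to lie above 0. Over the 13 others 12 were above 0, with 4 at 2-fold and a median of 0.51. In the MIST1-null pair 15 of 16 were also above 0, with a median of 0.56. Creld2, an ER protein with isomerase activity, read 184 in neck and 557 in zymogenic cells. Acnat2, an acyltransferase gene, read 21.3 and 53.5, the neck value under the detection level. Members of the ER list with smaller differences were Hsp90b1 (0.36), Canx (0.13) and Calr (0.12), so the element was also found in genes with nearly equal values on both arrays.

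**Figure D2:**
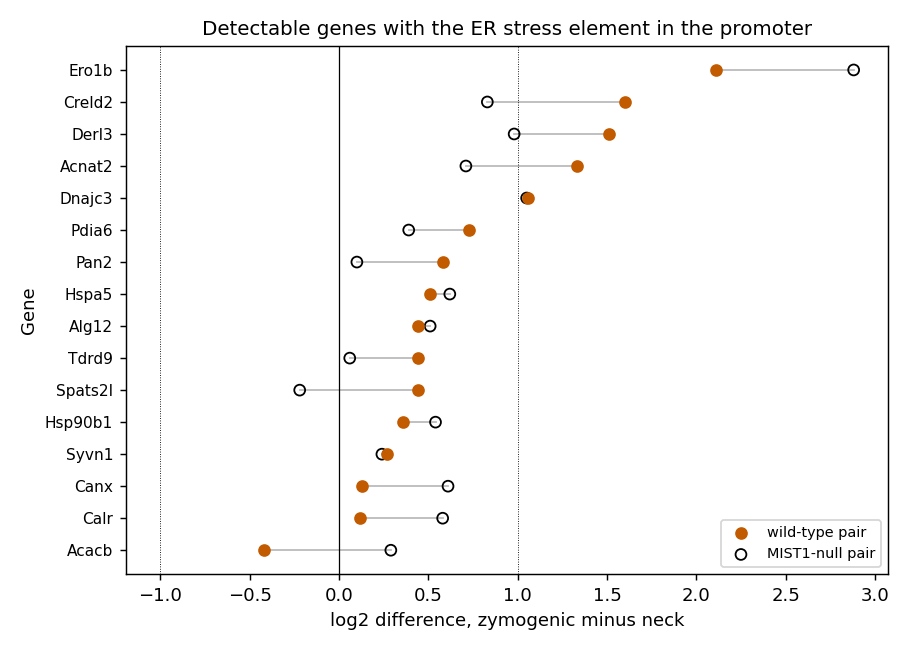
The log2 difference of zymogenic minus neck (x) for each of the 16 detectable genes whose promoter holds the ER stress element (y), with filled points for the wild-type pair and open points for the MIST1-null pair, 1 array per cell type in each, and dotted lines at 2-fold. In wild type 15 of 16 lie above 0, and Ero1b, Creld2, Derl3, Acnat2 and Dnajc3 pass 2-fold.

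Genes for traffic from the ER onward had a smaller median than those for entry, and few passed 2-fold. Of 33 detectable genes for vesicle coats and cargo receptors, 3 were 2-fold higher and 1 lower, with a median of 0.28. Among all detectable genes 6.27% were higher and 6.78% lower, so these counts are not read as a difference. Tmed6 and Tmed3, cargo receptors of early secretory vesicles, read 337 and 1620 and 345 and 816, and the coat subunit Copz2 read 133 and 396. Kdelr1, which returns ER proteins from the Golgi, read 135 and 52.3. Golm1, a Golgi membrane protein, read 844 and 92.9 and was one of the genes furthest down with both values at the detection level.

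Of 27 detectable regulated exocytosis genes, 4 were higher and 4 lower, with a median of -0.13. All 4 higher genes were detectable through the zymogenic array alone, and over the 18 with both values at the level 0 were higher and 2 lower, Snap29 and Rab8a. Syt7, a calcium sensor of granule fusion, read 27.6 and 57.6, and Cadps, a priming factor, 17.7 and 44.9. Sytl2, a granule tethering protein, read 93.7 and 20.5, and Rab27b, a granule GTPase, differed by -0.75. Snap25 and Cpe, also higher, belong to the endocrine marker list, which was higher too. Of 6 detectable genes reported as activated by MIST1, 3 were 2-fold higher, among them Mib1, a ubiquitin ligase, with 72.8 and 158. The gap junction gene Gjb1 read 56.6 and 56.7.

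**Figure D3:**
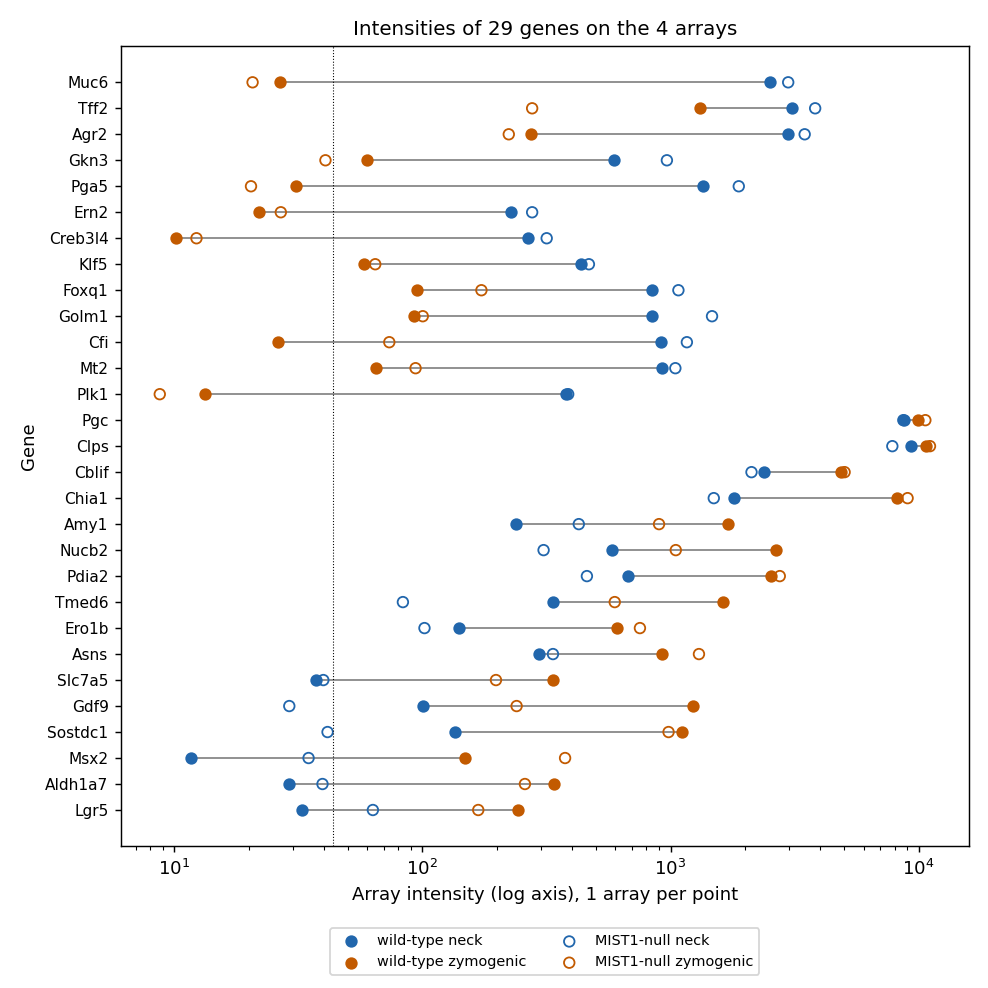
Intensity (x, log axis) of 29 genes on each of the 4 arrays, 1 array per point, with filled points for wild type, open points for MIST1-null, blue for neck and orange for zymogenic cells, a line joining the wild-type pair and a dotted line at the detection level of 43.7. Pgc and Clps lie close together on the 4 arrays, while Muc6, Pga5 and Creb3l4 read under the detection level in zymogenic cells of both genotypes.

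Some digestive enzymes best known from the pancreas were higher in zymogenic cells. Amy1, an amylase gene, read 239 in neck and 1704 in zymogenic cells. Try5, a trypsinogen gene, read 36.8 and 155, and Pnliprp2 and Pnliprp1, of the lipase family, read 993 and 2027 and 116 and 240.1. Of 15 detectable genes of the list, 6 were higher and 1 lower, with a median of 0.47, and Rnase1 was the lower one, at 211 and 74.5. Cela1 (-0.45), Cela2a (-0.33) and Ctrc (-0.85), also of the list, had negative differences under 2-fold. Over the 10 with both values at the level 3 were higher and 1 lower. Clps, colipase, and Pla2g1b, a secreted phospholipase, were close to the top of the range on both arrays, with 9327 and 10705 and 8848 and 10385. Spink1, a trypsin inhibitor, read 38.7 and 319, but the MIST1-null pair gave -0.53 for it. Amylase and trypsinogen genes form families of near-identical copies, so their probe sets may read several of them.

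Amino acid supply stood out through a few members. Slc7a5, a carrier of large amino acids, read 37.3 in neck and 336 in zymogenic cells. Asns, asparagine synthetase, read 294 and 927, and the folate enzyme gene Mthfd2 25.7 and 79.9. Nupr1, a small stress-induced nuclear protein, read 1312 and 4322. Of 23 detectable genes of amino acid supply and ATF4 targets, 5 were 2-fold higher and 0 lower, with a median of 0.40. Over the 18 with both values at the level 2 were higher and the median was 0.05, and the stress genes Ddit3 and Trib3 read 109.7 and 81.3 and 97.9 and 97.8. Among 18 tRNA synthetase genes, Lars read 251 and 607, Farsb 287 and 142, and the median was 0.32.

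Genes of energy use mostly gave negative differences, few of them past 2-fold. Of 35 detectable oxidative phosphorylation genes, 2 were 2-fold lower and 0 higher, yet 33 of 35 were below 0, with a median of -0.52, where 48.4% of all detectable genes were below 0. Uqcrc1 and Cyc1, of complex III, read 169 and 80.5 and 310.3 and 152. Enzymes of fatty acid breakdown were lower as well. Cpt1a, the entry enzyme, read 179 and 50.9, Hadhb 563 and 239, Hadha 500.1 and 227, and Acadvl 195 and 82.0. Parietal cell genes, from a cell rich in mitochondria, were lower on the same array as given above, and their part in these differences was not tested. In the MIST1-null pair the parietal median was -0.22 beside -1.07 in wild type, and the oxidative phosphorylation median was -0.06.

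Over all 24 detectable fatty acid genes, breakdown enzymes included, 7 were lower and 3 higher, with a median of -0.73. With both values at the level 5 were lower and 1 higher. Outside the breakdown enzymes, Fabp1, a fatty acid binding protein, read 128 and 8.69. Slc27a2, a transporter and activator of long fatty acids, read 35.4 and 143, and the elongase gene Elovl5 24.6 and 76.8. Sterol synthesis genes had a median of -0.20 over 15, with Sqle at 133 and 38.3 and Msmo1 at 909 and 399.

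Detoxifying genes were mostly on the neck side. Of 29 detectable glutathione and xenobiotic genes, 6 were lower and 2 higher, with a median of -0.64. Over the 15 with both values at the level 3 were lower and 0 higher, with a median of -0.66. Gsta4, a transferase that clears lipid aldehydes, read 1245 in neck and 287 in zymogenic cells, Mgst2 464 and 41.9, and Mgst3 129 and 41.3. Mt2, a metallothionein that binds zinc and copper, read 922 and 65.0, the largest difference of any gene named among those with both values at the level, and -3.48 in the MIST1-null pair. The 2 aldehyde dehydrogenases past 2-fold were higher. Aldh7a1 read 72.8 and 245 and Aldh1a7 differed by 3.55, with a zymogenic value of 339, while Aldh1a1, a close relative of Aldh1a7, read 817 and 566.

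Dividing cells are found near the neck of the gland, and mitosis genes had higher signals on the neck array. Of 19 detectable mitosis genes, 9 were lower by 2-fold or more and 0 higher, with a median of -0.73. Top2a, a topoisomerase of dividing cells, read 109 and 26.3, Mki67 62.4 and 20.1, and Birc5 284 and 19.6. On the zymogenic array all 9 were under the detection level, and over the 6 mitosis genes with both values at the level the median was 0.08, so the tilt rests on genes near or under that level on 1 array. Cdk1 and Ccnb2, core mitotic regulators, read 68.0 and 102 and 65.3 and 93.8, higher on the zymogenic array.

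Replication genes did not follow 1 direction. Of 23 detectable members, 3 were lower and 3 higher, with a median of -0.25. With both values at the level 0 of 14 were lower and 2 higher, Blm and Ccnd2. Rfc3 and Rrm1, for DNA copying and nucleotide supply, read 122 and 20.1 and 73.2 and 14.7. Pcna, the replication clamp, read 627 and 526. Ccnd2, a cyclin of early G1, read 465 in neck and 1328 in zymogenic cells and differed by 1.29 in the MIST1-null pair. Blm, a DNA helicase, read 54.0 and 515, but only 50.4 and 96.9 in the MIST1-null pair. The gene Blm overlaps Ndufab1-ps in RefSeq, and which of them its probe set reads was not checked. Hmgb2, a chromatin protein of dividing cells, read 732 and 131, with both values at the level.

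Signalling genes of the BMP family included 3 of the genes furthest up. Gdf9, an oocyte growth factor of this family, read 100.5 in neck and 1234 in zymogenic cells, a 12.3-fold difference. Its gene overlaps that of Uqcrq in RefSeq, whose own probe set read 321 and 208. Sostdc1, a secreted antagonist of BMP and Wnt signals, read 135 and 1112, and Msx2, a target of BMP signals, is given above. The MIST1-null pair gave 3.04, 4.56 and 3.43 for Gdf9, Sostdc1 and Msx2. The Id genes, also BMP targets, went the other way, with Id4 at 338 and 71.3, Id2 at 308 and 122 and Id3 at 98.4 and 20.6. Id1 differed by -0.49 only. Smad6 and Msx1, of the same list, had positive differences of 0.82 and 0.43. Detectable receptors and SMAD transducers all differed by less than 2-fold, among them Bmpr1a (0.05) and Smad4 (0.02). Over 28 detectable genes, 3 were higher and 3 lower, and with both values at the level 2 were higher and 2 lower.

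Lgr5, a Wnt pathway receptor that marks stem cells and a subset of chief cells, read 32.8 in neck and 242 in zymogenic cells. It was one of 2 of 17 detectable Wnt response and stem cell genes that were higher, and 2 were lower. Stmn1, a microtubule protein of progenitor cells, read 871 and 338. Axin2 and Tnfrsf19, which mark Wnt-responsive cells, were under the detection level, and Prom1 read 465 and 355. The median of the list was -0.26, and with both values at the level 0 of 11 were higher and 2 lower.

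Secreted defence and inhibitor genes included large differences in both directions. Cfi, a protease of the complement system, read 916 in neck and 26.1 in zymogenic cells. Spink4, an inhibitor found in mucous cells, read 320.5 and 101, and Cd55, a complement shield, 154 and 50.1. On the zymogenic side, the protease inhibitor gene Serpina3n read 12.2 and 123, and Vtn, vitronectin, 70.1 and 263. Of 22 detectable genes, 7 were higher and 5 lower, but 6 of the 7 were detectable through the zymogenic array alone. Over the 6 with both values at the level, 1 was higher, Vtn, and 2 lower, Cd55 and Spink4. Both chitinase genes with large differences, Chia1 and Chil5, are neighbours in RefSeq order, and Chil5 read 21.4 and 219.8. Chid1, a chitinase-like gene, read 46.2 and 133.

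Lysosomal genes were lower for some of the enzymes. Ctsd and Ctsh, lysosomal proteases, read 316 and 133 and 91.7 and 39.4, and Psap and Npc2, of lipid breakdown and export, read 283 and 126 and 212 and 91.6. Ctss, a protease of antigen-presenting cells, read 58.0 and 172, beside the immune genes, which were higher on the same array. Of 33 detectable members, 6 were lower and 1 higher, with a median of -0.14. With both values at the level 4 were lower and 1 higher. Ribosomal protein genes were even between the cells, with 0 of 32 at 2-fold either way and a median of -0.04.

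**Figure D4:**
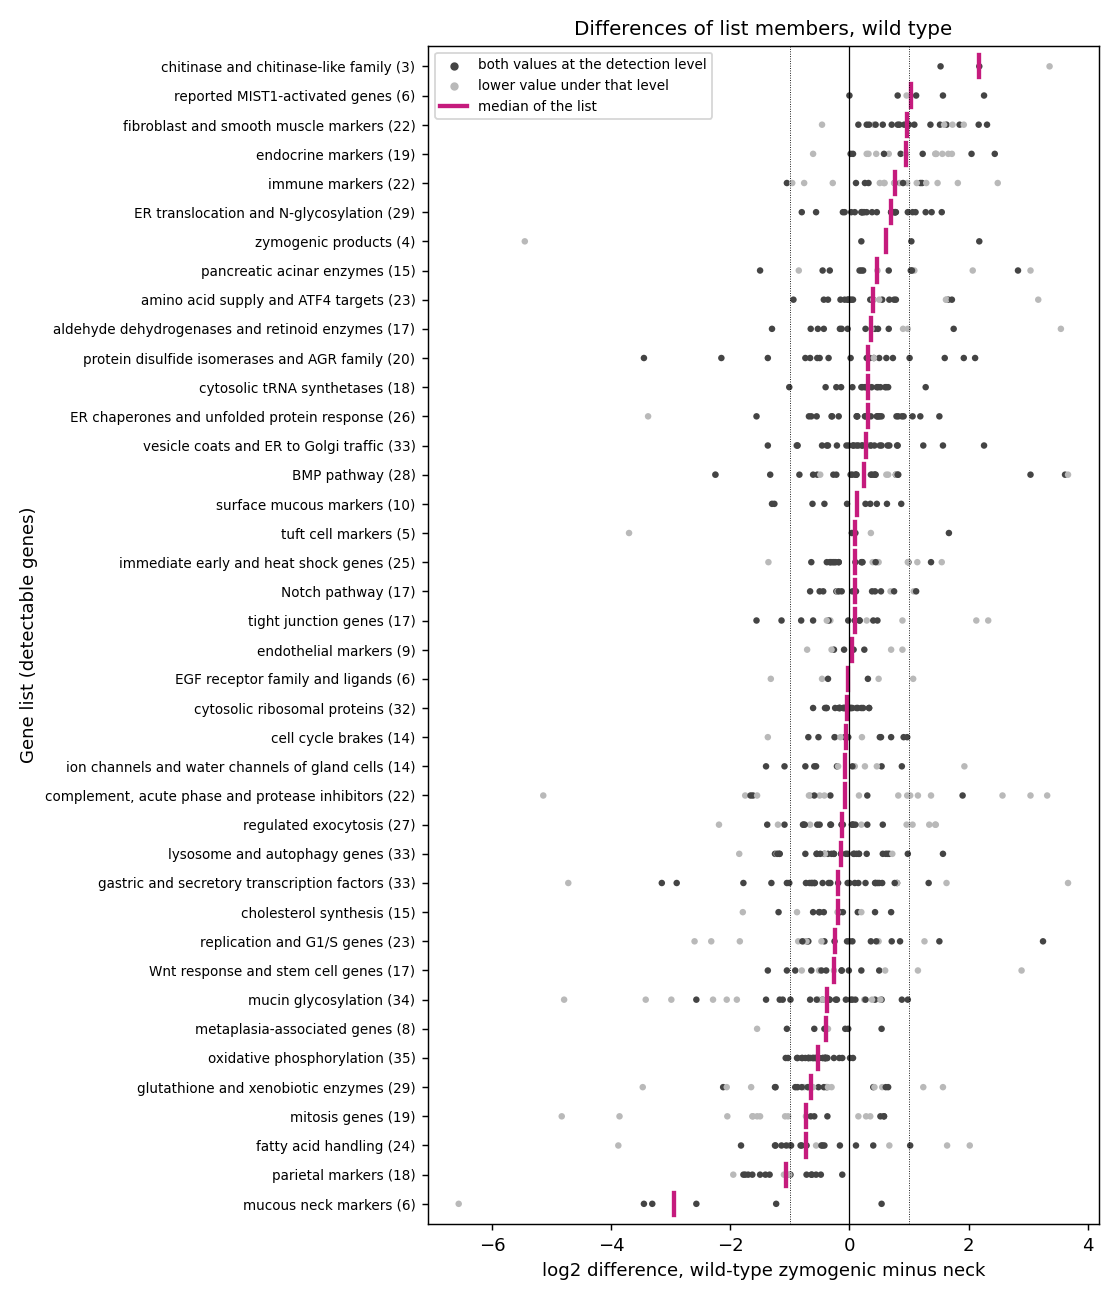
The log2 difference of wild-type zymogenic minus neck (x) for the detectable members of each gene list (y, number in brackets), 1 point per gene, dark where both values reached the detection level and pale where the lower one did not, with the list median as a bar and dotted lines at 2-fold. Neck, parietal and fatty acid lists lie to the left and ER translocation and endocrine lists to the right, and ribosomal protein genes lie around 0.

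Genes named by size alone, outside any list, filled in further products. With both values at the level, the furthest up beside those above were Nrn1, a neuronal surface protein (109 and 898), Jph2, a junction protein of muscle (52.3 and 300.2), Cdo1, which oxidises cysteine (120.4 and 656), Tpm2, a tropomyosin of smooth muscle (83.9 and 397), Nucb2, the precursor of nesfatin (582 and 2663) and Dnmt3l (47.6 and 217). Tpm2, Mgp and Chgb stand with stromal or endocrine genes that were higher on the same array. By position in RefSeq, Dnmt3l overlaps Aire and Tpm2 overlaps Car9. Furthest down were Bex4 (437 and 45.6), Bmt2 (344 and 46.2), the cytokine gene Il18 (441 and 60.3), Sharpin (359.9 and 50.3), Gpm6a (615 and 86.3), Tmem50b (366 and 52.9) and the exchanger gene Slc9b2 (262 and 47.0). With a neck value under the level, Penk, proenkephalin, read 40.7 and 254, the esterase gene Ces1d 22.4 and 173, the small heat shock gene Cryab 32.8 and 211, and the estrogen receptor gene Gper1 36.7 and 206. With a zymogenic value under it, Fam3c read 759 and 21.2, Oit1 511 and 21.6, Bche, a cholinesterase, 347 and 36.1, Pla2g4a, a phospholipase that frees arachidonic acid, 354 and 39.2, Cwh43 211 and 16.2, and Ak4 309 and 35.8.

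Among genes with the brightest signals on the side where they were higher, those lower in zymogenic cells included the apolipoprotein gene Apoa1 (2819 and 1267), the ion pump genes Fxyd3 (2303 and 1043) and Atp1b1 (1825 and 810.4), the parietal pump subunit Atp4b (2484 and 1202), the protease gene Ctse (1536 and 623) and Mrpl42 (1459 and 609). In the MIST1-null pair only Tff2, Agr2, Muc6 and Pga5 of these 10 bright neck genes were also 2-fold lower. For the 10 bright zymogenic genes, 8 were 2-fold higher in that pair too, and Srp9 (0.72) and Pnliprp2 (0.26) were not.

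The MIST1-null pair gave like differences for most genes named by size. Of the 15 genes furthest up with both values at the level, 15 were above 0 and 13 at 2-fold there, and of the 15 furthest down 13 were below 0 and 12 at 2-fold. Where 1 value was under the level, 10 of 15 higher and 15 of 15 lower genes were at 2-fold the same way, beside 4.90% higher and 4.80% lower of all genes detectable in that pair. Of the 739 higher genes, 490 were detectable there and 398 of these lay above 0, and of the 799 lower genes 715 were detectable and 546 lay below 0. The shares of all genes above and below 0 in that pair were not counted, so how far these counts exceed them is not known. Among the 60 genes furthest up or down the opposite sign there was found for Spink1 (-0.53), Greb1l (-0.14), Dennd1a (-0.83), Bmt2 (0.05) and Tmem50b (0.71). Of the bright genes Atp1b1 (0.02) had it too, and list members past 2-fold in wild type with the opposite sign there included Copz2 (-0.19), Rnase1 (0.36), Tmx2 (0.24) and Chid1 (-0.27). Whether any of these pairs of differences differ was not tested, since each is 1 array against 1.

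**Figure D5:**
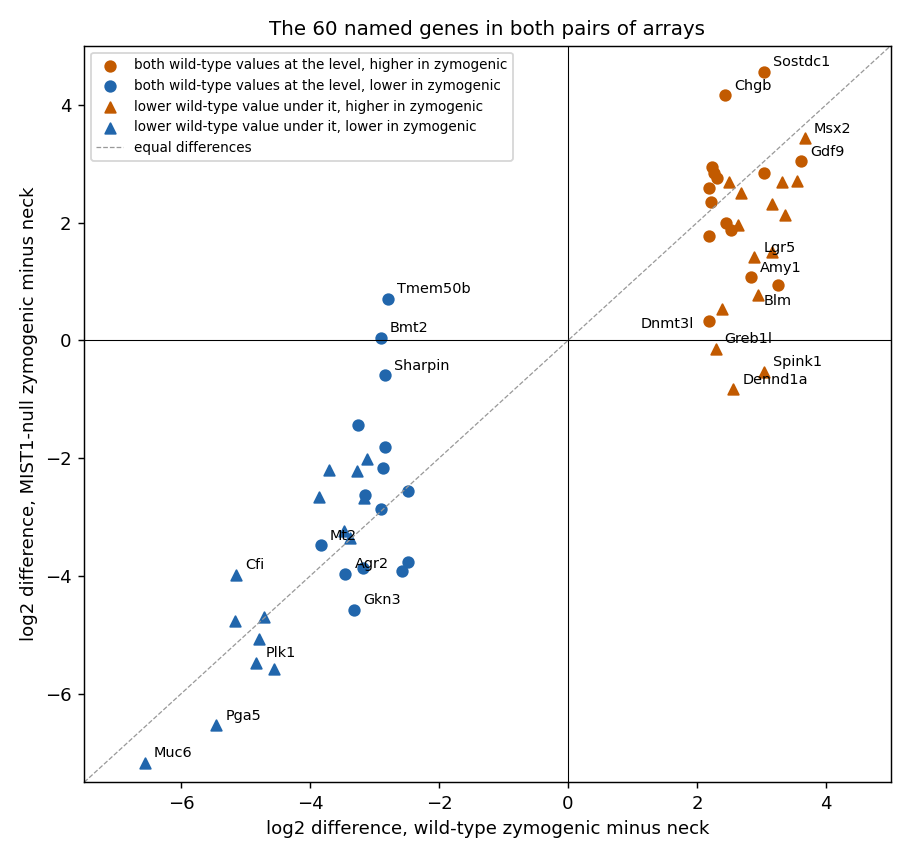
Difference in the wild-type pair (x) and in the MIST1-null pair (y), both log2 zymogenic minus neck, for the 60 genes named by the size of their wild-type difference, with circles where both wild-type values reached the detection level and triangles where the lower did not, and a dashed line of equal differences. Most points have the same sign in both pairs, and Tmem50b, Bmt2, Spink1, Greb1l and Dennd1a do not.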

How the data were processed

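Mouse Gene ST array RNA from 4 laser-captured samples was used. The authors deposited 1 linear intensity value per probe set and compared the arrays in dChip, per the series design text. How background, summary and scaling were handled was not given in the sources used here. RNA was pooled before amplification, per the labels' protocols. Of 35512 probe sets, 21789 had 1 gene in the platform annotation, 1621 several and 12102 none listed; only the first were used, and 21698 matched RefSeq (GRCm38.p6) by Entrez identifier. A gene with several probe sets took the one with the highest mean over the 4 arrays. For example, Sec61b has 3 probe sets, Hmgb2 has 4, and Srp9 and Ak4 have 2 each. Where in the genome a chosen probe set lies was not checked. Values were log2 with a floor of 1, and 41 gene lists were read by counts and medians. The members, lists and naming rule were chosen with earlier results of these data known.

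Named genes were the 15 each way with the largest differences where both values reached the detection level, the 15 each way where the lower did not (ranked with 32 added), the 10 each way largest in both genotypes, the 10 brightest each way at 2-fold, list members, and Bhlha15; predicted, olfactory, vomeronasal and small RNA symbols were left out. Genes outside it were named after their values were seen. By position, 28 of 77 genes named by size overlap another RefSeq gene. With 1 array per group no test was possible. The calculation was tested on simulated data. Python 3.11.15, pandas 2.3.3, numpy 2.4.6, matplotlib 3.10.9, R 4.3.3 and limma 3.58.1 were used. Alternatives were quantile, cyclic loess and median scaling, 3 filters on low values, 32 added to each value, and the mean over probe sets. Depth does not apply to arrays. Precision is limited by having 1 array per group.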

Additional observations from a re-analysis of the deposited data

Results flagged for a closer look

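For 2 genes among those named or listed, the difference of zymogenic minus neck passed 2-fold in opposite directions in the 2 genotypes. St6gal1, a sialyltransferase gene, differed by -2.29 in the wild-type pair and by 1.42 in the MIST1-null pair. It read 73.5 in neck and 15.0 in zymogenic cells of wild type, and 31.6 and 84.8 in MIST1-null mice. Cd53, a leukocyte surface gene, differed by -1.05 in the wild-type pair and by 3.52 in the MIST1-null pair. It read 118 and 56.7 in wild type and 6.30 and 72.1 in MIST1-null mice. Both reversals rest on a low value, and with 32 added to each value neither gene passed 2-fold in both pairs: St6gal1 gave -1.17 and 0.88, and Cd53 -0.76 and 1.44. Each value is 1 array against 1, and whether the pairs differ was not tested.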

How the results depend on the processing

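Counts of genes at 2-fold depended on the treatment of low values. Against 739 higher and 799 lower, 1166 were higher and 1054 lower with no filter, so that the balance turned. With the higher value at the 75th percentile 398 were higher and 555 lower, with both values at the median 266 were higher and 343 lower, and with 32 added to each value 262 were higher and 314 lower. Under quantile, cyclic loess and median scaling and with the mean over probe sets both counts stayed within 1.5 times. List medians moved by over 1.5 times for chitinases with no filter (1.14), for complement and inhibitor genes (-1.07) and tuft cell genes (-1.01) with the 75th percentile, and for mitosis genes with both values at the median (0.08). These changes follow from which genes are kept, and with 32 added from shrinkage of low values. Of 230 named or listed genes at 2-fold, 160 stayed there with 32 added. Under quantile scaling 226 of 229 stayed, and under cyclic loess scaling 223 of 227. A filter or an added 32 cannot change a sign. Under quantile, cyclic loess and median scaling 0 changed sign. The same held with the mean over probe sets, which acts only on genes with several. No paired analysis was possible because each group has 1 array. Signal over background is unknown, and sizes resting on a value under the detection level are not firm: this holds for 473 of the 739 higher and 456 of the 799 lower genes. The share at 2-fold was 19.9% among the dimmest genes (mean intensity 18.5 to 48.3) and 11.3% among the brightest (121 to 9992).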

Other observations

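Junction and ion transport genes gave small numbers of large differences. F11r, a junction adhesion protein, read 367 in neck and 125 in zymogenic cells and Ocln, occludin, 122 and 55.2, while Jam3 differed by 2.33 and Cldn8 read 23.0 and 100.5. Cldn18, the claudin of the stomach, read 528 and 347. Of 17 detectable tight junction genes 2 were higher and 2 lower, and with both values at the level 0 were higher and 2 lower. Slc12a2, a chloride-loading cotransporter, read 1301 and 493, Kcnk1, a potassium channel, differed by -1.09, and Slc5a8, a carrier of short fatty acids, read 26.3 and 100.4. Of 17 detectable Notch pathway genes 2 were higher and 0 lower, 1 of them with both values at the level, with Hes1, the main target, at 194 and 208. In the EGF family, Erbb2 read 59.1 and 23.7 and Egf 29.4 and 61.8, and Egfr was under the detection level.

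Pairs of neighbouring genes were counted as well. Of 11718 pairs of detectable genes adjacent in RefSeq order, 67 were both 2-fold higher in zymogenic cells and 73 both 2-fold lower. In 104 pairs 1 gene was higher and 1 lower. Among all detectable genes 6.27% were higher and 6.78% lower. Whether neighbours differed together more often than these shares give was not tested. The examples below were picked after their values were seen. Plk1, a mitotic kinase, differed by -4.83 and lies next to Ern2, the mucous cell stress sensor, which differed by -3.38. Cenpe, a mitotic motor, lies next to Bdh2, with -1.55 and -1.94, and Bdh2 next to Slc9b2, with -2.48. On the zymogenic side, Chil5 and Chia1 are next to each other with 3.36 and 2.18, Mug1 and Mug2 with 2.25 and 3.52, Ces1d and Ces1e with 2.95 and 1.58, and Cryab and Hspb2 with 2.69 and 2.36. The first 3 of these are families of similar copies, whose probe sets may share signal, and Cryab and Hspb2 overlap in RefSeq.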
